A study of Mus musculus with 6 samples.

Results

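The genes described here encode the soluble hydrolases of the lysosome, proteins of its membrane and the transcription factors that govern lysosomal genes. A list of 41 genes was matched by symbol to the authors' deposited table of 15282 genes, with cathepsins left out. All 41 were in the table, and all 41 had reads in both groups. The list was drawn up by known function, with earlier results of these data in view.

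The table set diffDC against maDC, both from wild-type C57/BL6 mice. The maDC were bone marrow cells grown for 6 days with GM-CSF and IL-4, stimulated with lipopolysaccharide (LPS) for 24 hours and purified with magnetic beads against the dendritic cell integrin CD11c. The diffDC were such maDC after a further 9 days on spleen stromal cells, so they carried the same cytokine and LPS treatment. The labels do not say how diffDC were separated from the stroma before RNA extraction. The labels name 3 libraries a group, but the table gave 1 read number per gene and group, so every difference below compares 1 diffDC pool with 1 maDC pool and has no replicate check. Counting intervals (95%, exact Clopper-Pearson) cover counting error only.

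Lysosomal hydrolases break down glycans, lipids, nucleic acids and proteins that reach the lysosome from the cell surface, from phagosomes or by autophagy. Most are made in the endoplasmic reticulum, tagged with mannose phosphate and carried to the acid compartment, where a dense coat of LAMP glycoproteins lines the membrane. Macrophages are known for a large lysosomal system that digests engulfed material, while maturing dendritic cells are known for restrained breakdown that keeps peptides for presentation. The factors TFEB, TFE3 and MITF bind E-box motifs near the starts of many lysosomal genes, and TFEB is held in the cytoplasm when the kinase mTOR is active at the lysosome.

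Read numbers summed to 89836110 in diffDC and 69190437 in maDC, and were scaled with TMM factors. A call of higher or lower needed a scaled difference of 2-fold or more and a counting interval that left out a ratio of 1. Of all genes, 23.3% were called higher and 21.0% lower. In the 9957 genes whose CPM (share of the library's reads, in parts per 1e6) averaged 5 or more, as it did for all 41 lysosomal genes, 20.8% were called higher and 16.8% lower. The pools also differed in cell type markers. Of 25 listed macrophage markers, 17 were called higher and 4 lower, and their summed level was 23663 scaled CPM in diffDC and 2967 in maDC, with none at 0. Of 19 dendritic cell markers, 2 were called higher and 16 lower, with sums of 1137 in diffDC and 13125 in maDC, and Clec10a alone was listed at 0, in maDC. Of 31 stroma markers 28 were matched, with 19 called higher and 5 lower, a median log2 ratio of 3.801 and sums of 5549 in diffDC and 1849 in maDC, and Fbln1 alone was listed at 0, in maDC. Vim, which was not called, made up 2852 of the sum in diffDC and 1526 in maDC. The collagen gene Col3a1 had 26756 reads in diffDC and 26 in maDC, 697-fold higher. The part of these cell types in the lysosomal values was not tested. In such pools, more cells of a type and more RNA per cell cannot be told apart.

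Of the 41 lysosomal genes, 19 were called higher in diffDC (46.3%), 2 lower (4.88%) and 20 neither. Their median log2 ratio of diffDC over maDC was 0.89, against 0.06 over the 9957 genes averaging 5 CPM or more. Above 0 lay 32 of the 41 ratios. Together the 41 genes took 3.29% of the reads in diffDC and 1.36% in maDC. Without Lyz2, which held the most reads of the list, the shares were 1.97% in diffDC and 0.991% in maDC. By role, the genes called higher were 7 of 12 glycosidases, 2 of 5 sulfatases, 2 of 4 sphingolipid genes, 2 of 7 lipases, thioesterases and phosphatases, 4 of 4 proteases and other soluble proteins, 2 of 6 membrane proteins and 0 of 3 transcription factors. No test compared the roles.

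**Figure D1:**
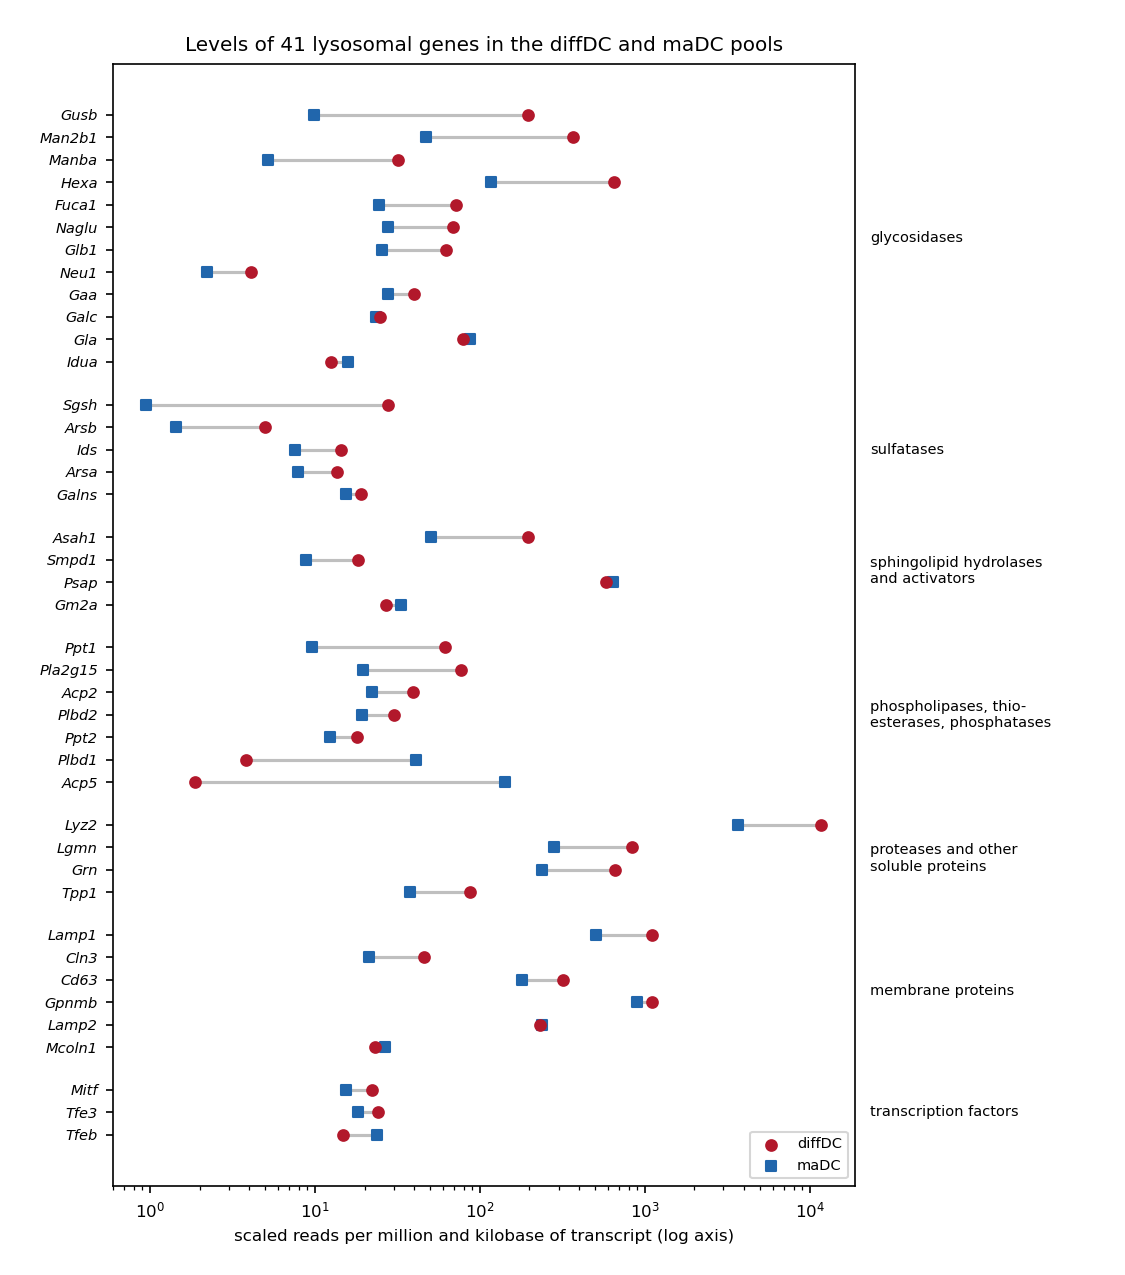
Level of each of the 41 lysosomal genes, in scaled CPM per kilobase of transcript on a log axis, in the diffDC pool (circles) and the maDC pool (squares), grouped by role and joined by a line. Most circles lie to the right of their squares, and Lyz2 stands highest in both pools at 11762 in diffDC and 3682 in maDC. The reverse order is shown by 9 genes, with the widest gaps for Acp5 and Plbd1.

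**Figure D2:**
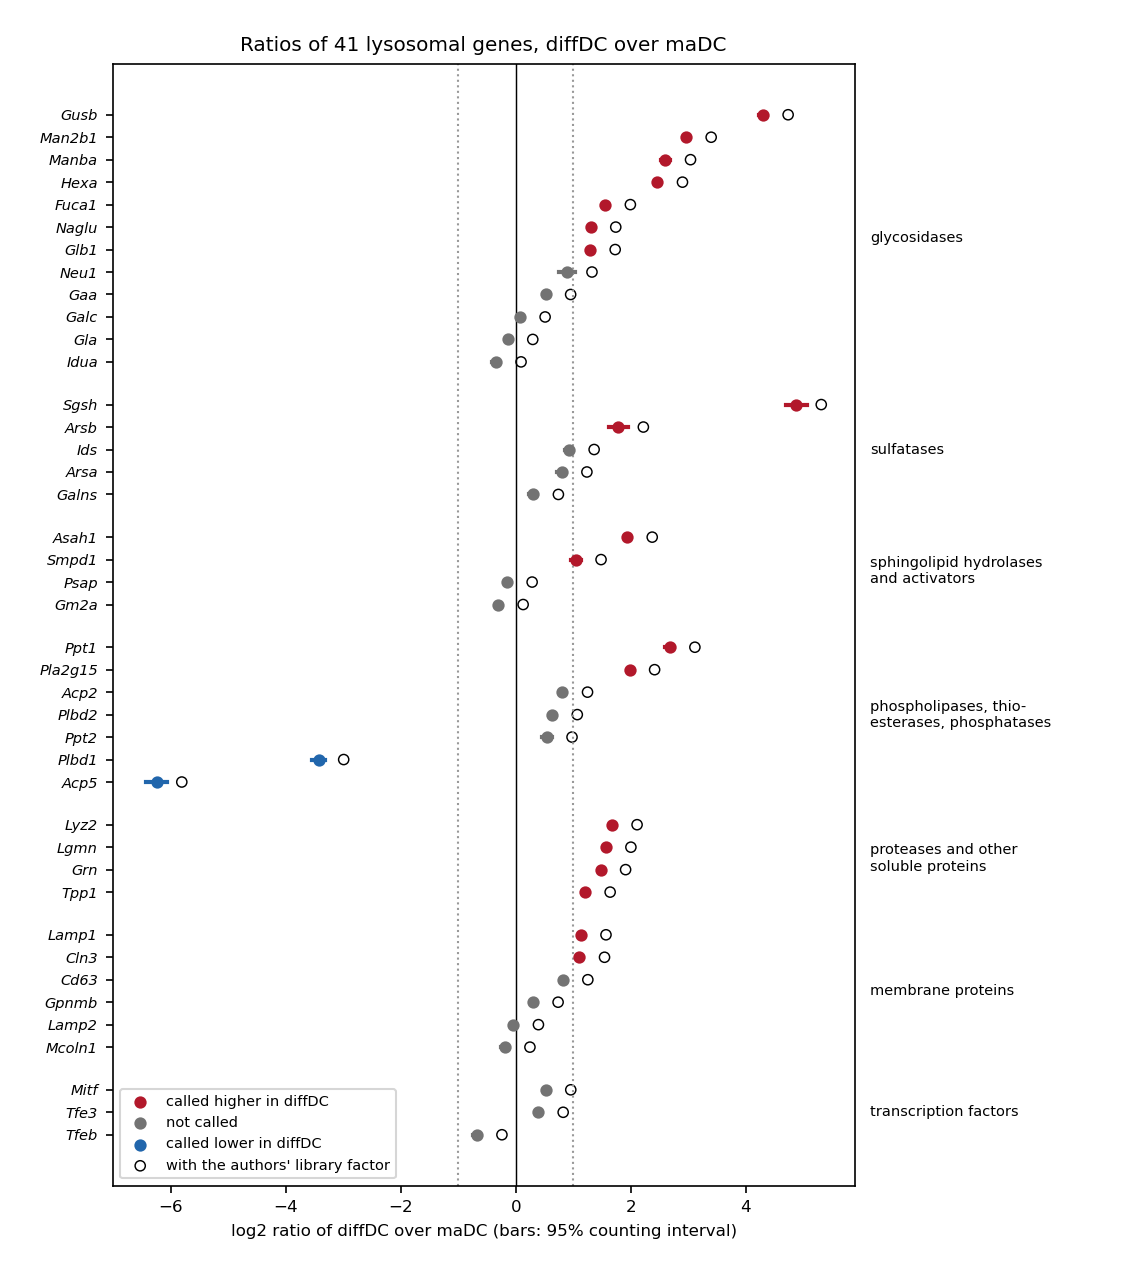
Log2 ratio of diffDC over maDC for the same genes, with bars for the 95% counting interval, dotted lines at 2-fold and open circles for the ratio under the authors' library factor. Sgsh lies farthest right at 4.88 and Acp5 farthest left at -6.24, and each open circle sits 0.44 to the right of its filled point.

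The scale between the pools affects all ratios alike. The authors' deposited log2 ratios used another library factor, which placed every gene 0.44 higher on the log2 scale and the median of all genes at 0.46 in place of 0.03. With that factor 25 of the 41 genes were called higher and 2 lower, against 32.2% of all genes called higher and 15.7% lower, 47.9% in all. The 6 genes added were Neu1, Ids, Arsa, Plbd2, Acp2 and Cd63. Another 6, Gla, Idua, Psap, Gm2a, Lamp2 and Mcoln1, lay below 0 with TMM and above 0 with the authors' factor, so no direction is given for them.

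Among the glycosidases, which trim sugars from glycoproteins, glycolipids and glycosaminoglycans, the largest change was that of Gusb. This gene (Entrez 110006, chromosome 5, 129989011 to 130003049, minus strand, GRCm38, protein coding) encodes beta-glucuronidase, which removes glucuronic acid from glycosaminoglycan chains. It had 45871 reads in diffDC and 1573 in maDC, 19.7-fold higher (interval 18.8 to 20.8). Per length, Gusb ranked 11th of the 41 genes in diffDC and 33rd in maDC. The mannosidases that clear the mannose core of glycoproteins were both called higher. Man2b1, the lysosomal alpha-mannosidase, had 118197 reads in diffDC and 10250 in maDC, 7.80-fold higher (interval 7.65 to 7.96). Manba, the beta-mannosidase, had 11187 reads in diffDC and 1244 in maDC, 6.09-fold higher (interval 5.74 to 6.46). Fuca1, the fucosidase that acts on the same glycans, had 17307 reads in diffDC and 3976 in maDC, 2.95-fold higher (interval 2.85 to 3.05).

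Glycosidases of gangliosides and other glycolipids differed among themselves. Hexa, the alpha subunit of beta-hexosaminidase A, had 115449 reads in diffDC and 14150 in maDC, 5.52-fold higher (interval 5.43 to 5.62). Glb1, the beta-galactosidase that acts a step earlier on gangliosides, had 14345 reads in diffDC and 3957 in maDC, 2.45-fold higher (interval 2.37 to 2.54). Glb1 shares exon sequence with Tmppe on the same strand, which had 7268 reads in diffDC and 3128 in maDC. The read numbers of both genes carried decimals, so the value of Glb1 is less certain. Neu1, a sialidase, had 1515 reads in diffDC and 553.05 in maDC, and its log2 ratio of 0.89 did not reach the limit. Gla, the alpha-galactosidase of globotriaosylceramide, had 22884 reads in diffDC and 17052 in maDC, a log2 ratio of -0.14. Galc, which splits galactosylceramide, had 7851 reads in diffDC and 5041 in maDC, a log2 ratio of 0.08. The glycogen-degrading glucosidase Gaa was at 0.52, with 13470 reads in diffDC and 6359 in maDC. These enzymes ranged from a log2 ratio of -0.14 for Gla to 2.47 for Hexa.

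The largest rise of the list was that of Sgsh, the sulfamidase of heparan sulfate breakdown (Entrez 27029, chromosome 11, 119343425 to 119355536, minus strand, protein coding). Sgsh had 11565 reads in diffDC and 266 in maDC, 29.4-fold higher (interval 26.1 to 33.4). Per length it was the lowest of all 41 genes in maDC, at 0.948 scaled CPM per kilobase, and 25th in diffDC, at 27.9. An exon of Sgsh overlaps Card14 on the opposite strand, but Card14 held 19 reads in diffDC and 102 in maDC. Other enzymes of heparan sulfate differed in size of change. Naglu, which removes N-acetylglucosamine, had 16307 reads in diffDC and 4468 in maDC, 2.47-fold higher (interval 2.39 to 2.55). Ids, the iduronate sulfatase, had 6719 reads in diffDC and 2389 in maDC, a log2 ratio of 0.93 whose interval ended just under the limit. Idua, the iduronidase that follows it, had 4254 reads in diffDC and 3650 in maDC, a log2 ratio of -0.34. Idua shares exon sequence with Dgkq and Slc26a1 on the opposite strand, and its read numbers carried decimals, so its value is less certain. Hgsnat, which acts on the same chain and stood outside the list, had a log2 ratio of 0.91 and was not called. The named enzymes of this pathway spanned ratios from -0.34 to 4.88.

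The other sulfatases were all above 0. Arsb, arylsulfatase B of dermatan and chondroitin sulfate, had 1904 reads in diffDC and 374 in maDC, 3.45-fold higher (interval 3.08 to 3.86). Arsa, the sulfatase of the myelin lipid sulfatide, had 4575 reads in diffDC and 1775 in maDC, a log2 ratio of 0.80. Galns, which acts on keratan sulfate, had 4520 reads in diffDC and 2473 in maDC, a log2 ratio of 0.31. All 5 sulfatases depend on the activating enzyme Sumf1, which was not called, at 0.43. Sumf2, a relative of Sumf1, was 6.70-fold higher, with 1535 reads in diffDC and 155 in maDC.

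In the sphingolipid group 2 hydrolases were called higher and the 2 activator proteins were not. Asah1, acid ceramidase, had 42015 reads in diffDC and 7417 in maDC, 3.83-fold higher (interval 3.74 to 3.93). Smpd1, acid sphingomyelinase, had 4206 reads in diffDC and 1376 in maDC, a log2 ratio of 1.05 with an interval of 0.96 to 1.14 that reached under 2-fold. The activators, which lift lipids out of membranes for the hydrolases, were not called. Psap, the precursor of the saposins, had 147150 reads in diffDC and 110502 in maDC, a log2 ratio of -0.15. Gm2a, the activator that serves hexosaminidase A, had 11038 reads in diffDC and 9238 in maDC, a log2 ratio of -0.31. Psap was nevertheless abundant, ranking 7th of the 41 genes per length in diffDC and 3rd in maDC.

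Lipases, thioesterases and phosphatases included the list's 2 falls. Acp5, tartrate-resistant acid phosphatase (Entrez 11433, chromosome 9, 22126727 to 22135711, minus strand, protein coding), had 261 reads in diffDC and 13388 in maDC, 75.8-fold lower (interval 67.0 to 86.0). Per length Acp5 was the lowest of the 41 genes in diffDC and ranked 9th in maDC. Plbd1, a phospholipase B-like protein (Entrez 66857, chromosome 6, 136612070 to 136661928, minus strand, protein coding), had 715 reads in diffDC and 5208 in maDC, 10.8-fold lower (interval 9.95 to 11.7). Both genes have a counterpart on the list that was not called. Acp2, the classical lysosomal acid phosphatase, had 16190 reads in diffDC and 6235 in maDC, a log2 ratio of 0.81. Plbd2, the paralog of Plbd1, had 10336 reads in diffDC and 4503 in maDC, a log2 ratio of 0.64. Per length, the level of Acp2 was 20.8 times that of Acp5 in diffDC and 0.156 times in maDC. Likewise the per-length level of Plbd2 was 7.86 times that of Plbd1 in diffDC and 0.470 times in maDC. In each pair the more abundant gene in one pool was the less abundant one in the other.

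Rises in this group were those of Ppt1 and Pla2g15. Ppt1, which removes palmitate from proteins, had 14642 reads in diffDC and 1545 in maDC, 6.41-fold higher (interval 6.09 to 6.76). An exon of Ppt1 overlaps Cap1 on the opposite strand, which had more reads, 64565 in diffDC and 24624 in maDC. No label states whether counting used strand, so reads of the overlap cannot be assigned with certainty. Pla2g15, the lysosomal phospholipase A2, had 19969 reads in diffDC and 3425 in maDC, 3.95-fold higher (interval 3.81 to 4.09). Ppt2, the second thioesterase, had 3029 reads in diffDC and 1406 in maDC and was not called, at 0.54. Per length Ppt1 stood at 3.40 times Ppt2 in diffDC and 0.772 times in maDC.

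Of the 4 proteases and other soluble proteins, Lyz2, Lgmn and Grn ranked 1st, 4th and 5th of the 41 genes per length in diffDC and Tpp1 13th. Lyz2, the lysozyme of myeloid cells that cleaves bacterial cell walls (Entrez 17105, chromosome 10, 117277331 to 117282321, minus strand, protein coding), had 1191445 reads in diffDC and 252448 in maDC, 3.19-fold higher (interval 3.18 to 3.21). Per length no gene of the table stood higher than Lyz2 in diffDC, and in maDC it ranked 7th of 15282. Its read numbers carried decimals and its near-identical neighbour Lyz1 held 133 reads in diffDC and 153 in maDC, so reads shared by the pair could have been divided. Lgmn, the asparaginyl endopeptidase that also activates other proteases, had 150194 reads in diffDC and 34284 in maDC, 2.97-fold higher, with a log2 interval of 1.55 to 1.59. Grn, the precursor of the granulins, had 147800 reads in diffDC and 35968 in maDC, 2.78-fold higher (interval 2.75 to 2.81). Tpp1, which cuts tripeptides from protein ends, had 21142 reads in diffDC and 6198 in maDC, 2.31-fold higher (interval 2.24 to 2.38). The fold changes of this group were close to each other, with log2 ratios from 1.21 to 1.68.

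Of the 6 membrane proteins, 2 were called higher. Lamp1, a major glycoprotein of the lysosomal membrane (Entrez 16783, chromosome 8, 13159161 to 13175338, plus strand, protein coding), had 236399 reads in diffDC and 72867 in maDC, a log2 ratio of 1.13 (interval 1.12 to 1.15). Lamp2, its relative with a part in autophagy, had 61685 reads in diffDC and 42936 in maDC, a log2 ratio of -0.04. Per length Lamp1 was at 4.79 times the level of Lamp2 in diffDC and 2.12 times in maDC. Cln3, a membrane protein lost in a juvenile storage disease, had 8644 reads in diffDC and 2712 in maDC, 2.16-fold higher (interval 2.07 to 2.25). Cln3 overlaps Apobr on the opposite strand, which had 6213 reads in diffDC and 2392 in maDC. Cd63, a tetraspanin of late endosomes, had 27549 reads in diffDC and 10569 in maDC, a log2 ratio of 0.82. Gpnmb, a glycoprotein of phagocyte lysosomes, had 401586 reads in diffDC and 220510 in maDC, a log2 ratio of 0.30. High in both pools, Gpnmb ranked 3rd per length among the 41 genes in diffDC and 2nd in maDC. Mcoln1, the calcium channel that releases lysosomal calcium, had 4456 reads in diffDC and 3436 in maDC, a log2 ratio of -0.19.

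None of the 3 transcription factors was called in either direction. Tfeb had 3178 reads in diffDC and 3435 in maDC, a log2 ratio of -0.68 (interval -0.75 to -0.61), or -0.24 with the authors' factor. Tfe3 had 7217 reads in diffDC and 3728 in maDC, a log2 ratio of 0.39. Mitf had 10458 reads in diffDC and 4929 in maDC, a log2 ratio of 0.52. These are transcript levels, while the factors are known to be controlled largely by phosphorylation and location, which RNA does not show. Tfec, the fourth member of the family and known from macrophages, was not on the list and was 5.26-fold higher, with 9288 reads in diffDC and 1195 in maDC (interval 4.95 to 5.59). Per length Tfec stood at 3.33 times the level of Tfeb in diffDC and 0.397 times in maDC.

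Promoters are shown because the factors of this family are known to bind the E-box CACGTG, and a longer palindrome around it is known as the CLEAR element of human lysosomal genes. Promoter windows from RefSeq on GRCm38.p6, 250 bases before to 50 after each annotated start, were matched for 38 of the 41 genes by Entrez identifier, 8 of them with more than 1 window. Asah1, Galns and Plbd2 were not matched. The motif TCACGTG, read on either strand and so also as CACGTGA, was found in 11 of the 38 genes (28.9%). The same motif was found for 774 of 12076 table genes with a window (6.41%) and in 3.77% of all 32851 windows. The shorter CACGTG, which lies within it, was found in the same number of lysosomal genes, 11, and in 10.9% of table genes. The 8-base palindrome TCACGTGA was found in 3 of the 38 genes (7.89%), against 1.91% of table genes. The CLEAR palindrome was found in 1 of them, Cln3, against 0.662% of table genes. The matches stand in capitals below, 5′ to 3′ on the strand of the gene and in order of the log2 ratio. At most 30 bases after the RefSeq start of the window are shown.
Sgsh, chr11:119355508-119355564, minus strand: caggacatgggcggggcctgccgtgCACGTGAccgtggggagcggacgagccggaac
Lgmn, chr12:102439111-102439167, minus strand: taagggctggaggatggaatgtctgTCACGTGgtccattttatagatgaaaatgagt
Naglu, chr11:101069995-101070051, plus strand: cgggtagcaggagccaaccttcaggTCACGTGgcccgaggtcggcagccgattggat
Glb1, chr9:114401004-114401060, plus strand: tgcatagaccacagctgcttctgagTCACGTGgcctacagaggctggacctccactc
Lamp1, chr8:13159074-13159176, plus strand: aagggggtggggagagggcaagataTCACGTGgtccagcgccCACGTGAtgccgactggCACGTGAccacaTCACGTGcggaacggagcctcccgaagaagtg
Cln3, chr7:126583326-126583410, minus strand: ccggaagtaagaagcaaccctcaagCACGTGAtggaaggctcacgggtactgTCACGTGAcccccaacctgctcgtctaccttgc
Arsa, chr15:89477410-89477466, minus strand: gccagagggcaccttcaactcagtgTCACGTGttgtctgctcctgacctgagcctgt
Gaa, chr11:119267797-119267853, plus strand: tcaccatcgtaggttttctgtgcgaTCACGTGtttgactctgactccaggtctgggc
Gla, chrX:134601168-134601255, minus strand: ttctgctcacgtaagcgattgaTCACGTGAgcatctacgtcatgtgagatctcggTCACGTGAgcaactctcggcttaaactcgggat
Mcoln1, chr8:3500422-3500505, plus strand: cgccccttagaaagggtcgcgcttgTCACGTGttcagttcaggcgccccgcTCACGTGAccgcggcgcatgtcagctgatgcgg
Plbd1, chr6:136661844-136661873, minus strand: gggcgaaggttggttcccaaggcCACGTGA

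Of the 17 matches, 16 lay before the RefSeq start of their window, 11 of them within 80 bases of it. GENCODE gene coordinates start elsewhere for some genes. By these, the matches of Cln3, Lgmn and Naglu and the nearer match of Mcoln1 lie inside the gene. That of Sgsh spans the first base of the gene. Lamp1 held 4 matches, Cln3, Gla and Mcoln1 held 2 each, and the other 7 genes held 1. The match of Plbd1 lay after the start. Of the 11 genes with TCACGTG, 6 were called higher and 1 lower, with a median log2 ratio of 1.11. Of the 27 without it, 12 were called higher and 1 lower, with a median of 0.89. Of table genes, 23.6% of those with the motif and 23.0% of those without it were called higher, with medians of 0.11 and 0.02. The difference between the medians of the lysosomal genes was not tested. Of the 6 genes at least 4-fold higher, Sgsh held a match, while Gusb, Man2b1, Manba, Hexa and Ppt1 held none in their windows. Of the 3 genes with the 8-base palindrome, Cln3 was called higher at a log2 ratio of 1.11, and Gla and Mcoln1 were not called, with a sign that depended on the library factor.

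**Figure D3:**
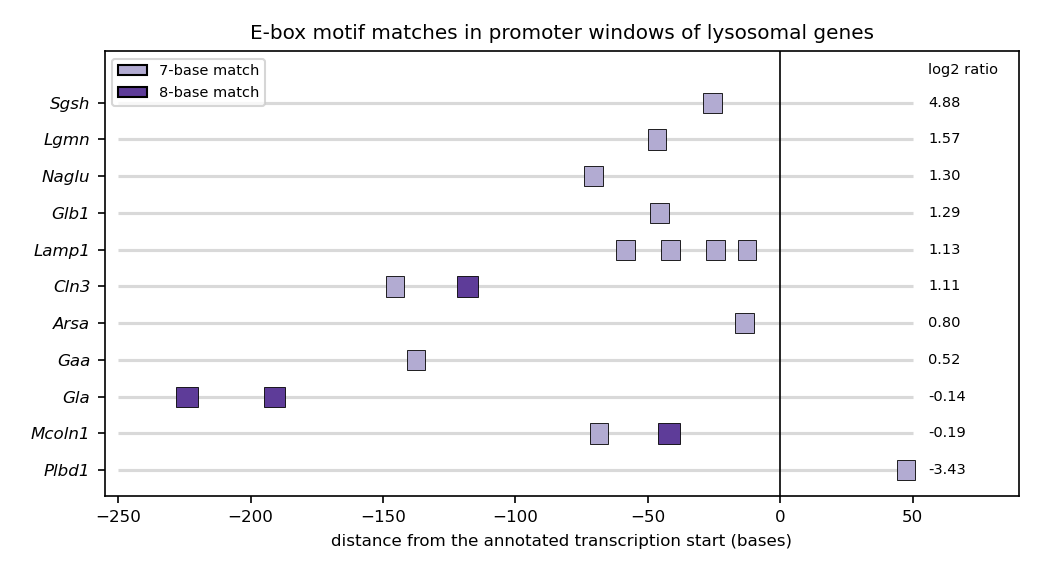
Position of each TCACGTG match (either strand) in the promoter windows of the 11 lysosomal genes that hold it, as distance in bases from the annotated transcription start, with light boxes for 7-base and dark boxes for 8-base matches and the log2 ratio of diffDC over maDC at the right. All matches but that of Plbd1 lie before the RefSeq start of their window, though some lie inside the gene by GENCODE coordinates. Genes with matches range from 4.88 for Sgsh to -3.43 for Plbd1.

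Other lysosomal genes were described from 4 further lists, 93 measured genes in all, of which 27 (29.0%) were called higher and 8 (8.60%) lower, with a median log2 ratio of 0.49. Of all genes, 23.3% were called higher and 21.0% lower. Of those averaging 5 CPM or more, as 87 of the 93 did, the shares were 20.8% and 16.8%. Of 28 other hydrolases and lumenal proteins, 11 were called higher and 3 lower, with a median of 0.78. Arsk, a sulfatase of glucuronate residues, was 7.56-fold higher, with 2510 reads in diffDC and 225 in maDC. The falls were those of Npc2 and of Rnaset2a and Rnaset2b. Npc2, which carries cholesterol out of the lumen, had 71255 reads in diffDC and 179640 in maDC, 3.72-fold lower (interval 3.69 to 3.76). Rnaset2a and Rnaset2b, near-identical copies of a lysosomal ribonuclease gene, were 4.96-fold and 4.64-fold lower, and reads could have been divided between them. Lipa, the acid lipase that frees the cholesterol carried by Npc2, was 3.09-fold higher, with 115703 reads in diffDC and 25364 in maDC. Npc1, the membrane partner of Npc2, was not called, at -0.08.

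Of 15 genes for sorting and activating the enzymes, 3 (20.0%) were called higher and 1 (6.67%) lower, with a median of -0.02. Of all genes, 23.3% were called higher and 21.0% lower, so neither share was above that of all genes. Igf2r, the large receptor for mannose phosphate tags, had 55868 reads in diffDC and 11991 in maDC, 3.15-fold higher (interval 3.09 to 3.22). Nagpa, which uncovers those tags, was 2.92-fold higher. Ap3b1, a subunit of the adaptor that sorts lysosomal membrane proteins, was 2.25-fold lower, with 14066 reads in diffDC and 21426 in maDC, and was not called with the authors' factor. M6pr, the small receptor for the same tags, had 42946 reads in diffDC and 50547 in maDC, a log2 ratio of -0.80.

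Of 30 other membrane proteins and transporters, 10 (33.3%) were called higher and 2 (6.67%) lower, with a median of 0.49. The shares of all genes were 23.3% higher and 21.0% lower. Mcoln3, a relative of the Mcoln1 channel, had 3576 reads in diffDC and 144 in maDC, 16.8-fold higher (interval 14.2 to 20.0). Slc17a5, which exports sialic acid, was 4.15-fold higher, and Abca2, a lipid transporter, 4.06-fold. Slc15a3, a histidine and peptide transporter, was 2.59-fold lower, with 15777 reads in diffDC and 27674 in maDC. Laptm4b, a membrane protein of late endosomes and lysosomes, was 2.53-fold lower, with 948 reads in diffDC and 1622 in maDC. With the authors' factor Slc15a3 and Laptm4b were not called. Among 20 regulators of the TFEB family, 3 were called higher and 2 lower, with a median of 0.37. Beside Tfec, the named changes were those of Mtor, the kinase that holds TFEB in the cytoplasm, 3.29-fold lower with 8297 reads in diffDC and 18459 in maDC, and of Ywhab, an adaptor protein that binds phosphorylated partners, 3.16-fold higher. Ppp3r1, a subunit of the phosphatase calcineurin that frees TFEB, was 2.04-fold lower, with 8641 reads in diffDC and 11959 in maDC, and was not called with the authors' factor.

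**Figure D4:**
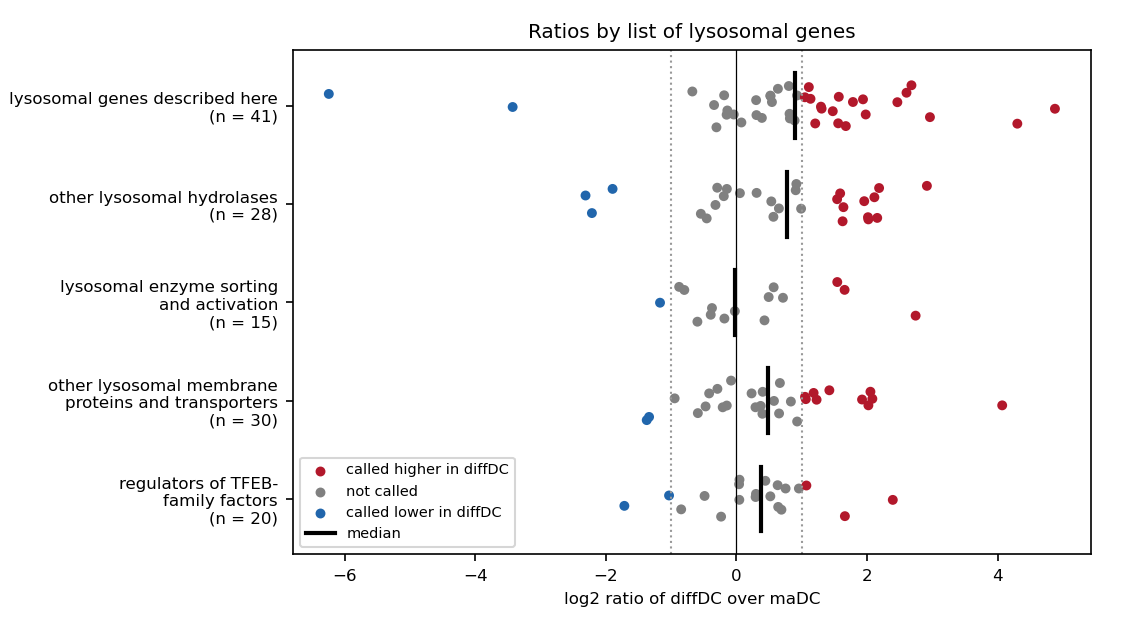
Log2 ratio of diffDC over maDC for the 41 lysosomal genes and the 4 further lists, one point a gene, with black bars at the medians and dotted lines at 2-fold. The medians run from 0.89 for the 41 genes and 0.78 for the other hydrolases down to -0.02 for sorting and activation.

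The deposited annotation gave the term lysosome to 143 genes, a set looked up after the table was read, and 18 of the 41 genes were among them. Of the 125 others, 34 (27.2%) were called higher and 44 (35.2%) lower, against 23.3% and 21.0% of all genes, with a median log2 ratio of -0.27. With the authors' factor 42 of them were called higher and 36 lower, against 32.2% and 15.7% of all genes. Their median was then 0.17, against 0.46 over all genes. The larger count and the sign of the median turned with the scaling. The median lay below that of all genes, 0.03 with TMM, under both factors. No test compared these 125 genes with the 41 genes.

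**Figure D5:**
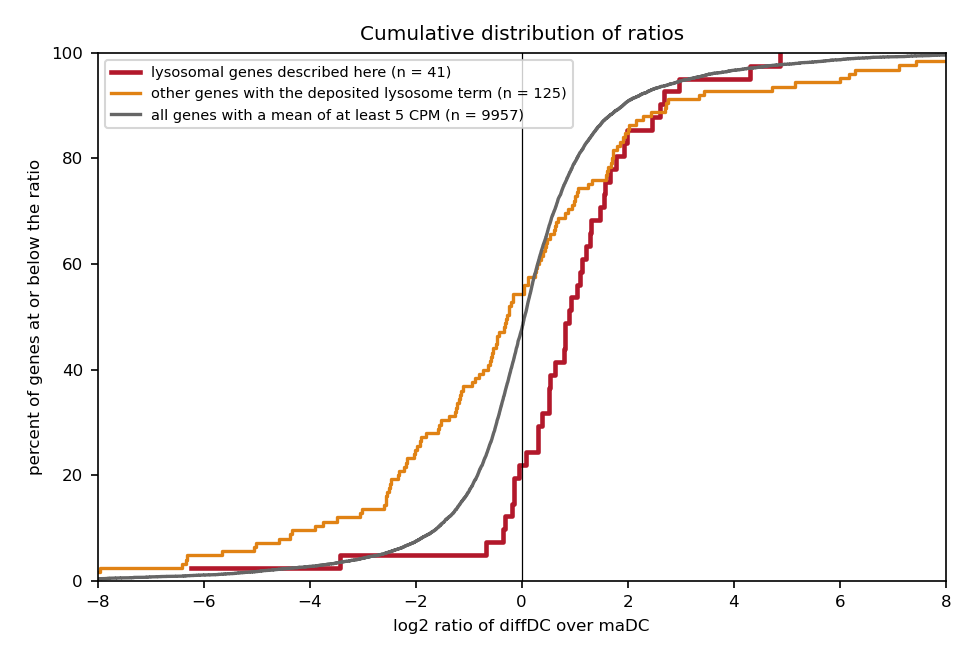
Cumulative share of genes at or below a log2 ratio of diffDC over maDC, for 3 sets of genes. These are the 41 lysosomal genes, the 125 other genes with the deposited lysosome term and the 9957 genes averaging 5 CPM or more. The 125 were not filtered by level, and 93 of them average 5 CPM or more. The curve of the 41 genes lies to the right of the other curves around its median of 0.89, while the annotated genes have a median of -0.27, or 0.17 with the authors' library factor, under which the median of the 41 genes is 1.33.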

How the data were processed

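RNA sequencing covered 6 libraries, 3 of diffDC and 3 of maDC. The authors' deposited table gave estimated counts, 1 read number per gene and group, and within 0.005 57.5% of diffDC values and 58.2% of maDC values were whole. How libraries were pooled, and the aligner, counter and test, are not given in the sources used here. The submitters' processing notes name GRCm38.p4 and mm10. The deposited log2 ratio (used as a score, since 1 cell, for Zdhhc21, was damaged) lay 0.127 below the plain log2 read ratio, within 0.001. This held for all other genes with reads in both pools. The authors' deposited p-values and q-values were not used. Their test is not given, and with 1 read number per gene and group no spread between libraries could be seen.

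Totals gave the depth, 89836110 reads in diffDC and 69190437 in maDC. TMM factors were estimated on rounded reads (edgeR 4.0.16, R 4.3.3), a log2 library ratio of 0.563. Ratios and levels were computed from the unrounded reads, scaled with these factors. Intervals are exact Clopper-Pearson 95% intervals on whole reads, covering counting error only. Per-length levels used the deposited length. Python 3.11.15 with matplotlib 3.10.9, scipy 1.17.1, numpy 2.4.6 and pandas 2.3.3 was used, and the code was tested on simulated data. Alternatives were the authors' factor, total reads, DESeq2 1.42.0 size factors, limits of 1.5-fold and 3-fold, a mean of 5 CPM, and 1 added read. Coordinates are from GENCODE M21 (GRCm38).

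The 41 genes and all lists were chosen with earlier results of these data known. All 41 are named. Of each further list, the 3 largest called changes at a mean of at least 5 CPM and the largest the other way were named. Hgsnat, Sumf1, Lipa, Npc1, Npc2, M6pr, Laptm4b and Ppp3r1 were added after their values were seen. The set of genes with the lysosome term was also added then.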

Additional observations from a re-analysis of the deposited data

How the results depend on the processing

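No paired analysis was possible because the table held 1 pooled read number per gene and group, and for the same reason no library could be left out. The 2 falls kept their direction and their call under the authors' factor, total reads and DESeq2 size factors, as did the 19 rises. The number of lysosomal genes called higher was 10 with a 3-fold limit, and between 19 and 25 under the other settings, and the number called lower was 2 or 3. The median log2 ratio was 1.33 with the authors' factor and 1.08 with total reads, and 0.87 to 0.89 with DESeq2 size factors, the filter at 5 CPM or 1 added read. These shifts follow from the library factors themselves. In the 4 further lists, 44 of 93 genes were higher and 4 lower with the authors' factor, against 32.2% and 15.7% of all genes. With a 1.5-fold limit 41 were higher and 14 lower, and with a 3-fold limit 19 were higher and 4 lower. Shares of all genes called at the 1.5-fold and 3-fold limits are not given here, so counts at these limits have no background. Of the 125 other genes with the deposited lysosome term, 42 were higher and 36 lower with the authors' factor, at a median of 0.17. With TMM these values were 34, 44 and -0.27. Over all genes the median was 0.46 with the authors' factor and 0.03 with TMM. With total reads, Neu1, Ids, Acp2 and Cd63 were also called higher. Depth did not limit the calls, since the least read gene of a pool, Acp5 in diffDC, had 261 reads, but the lack of values per library did.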

Other observations

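Of the 20 listed genes above the median of mean CPM, 12 were called higher and none lower, with a median log2 ratio of 1.26. Of the 21 at or below it, 7 were called higher and 2 lower, with a median of 0.64. The mean CPM includes diffDC, so this split is not independent of the ratio. Shares of all genes in the same CPM ranges are not given here. Of all genes averaging 5 CPM or more, 20.8% were called higher and 16.8% lower.

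Genes whose read numbers were whole in both pools, 25 in number, had 14 called higher and 2 lower, with a median log2 ratio of 1.11. The 16 with decimals had 5 called higher and none lower, with a median of 0.68. Decimals mark genes whose reads could have been shared with other genes or copies. The part of read sharing in these values was not tested, and the shares called among all genes with whole or decimal read numbers are not given here.

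The summed level of the glycosidases was 4055 scaled CPM in diffDC and 1114 in maDC. That of the sphingolipid hydrolases and activators was 2133 in diffDC and 1982 in maDC, most of it from Psap, so the class sum hides the rise of Asah1. For the lipases, thioesterases and phosphatases the sums were 680 in diffDC and 551 in maDC, with the fall of Acp5 beside the rises of Ppt1 and Pla2g15.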
